A study of Mus musculus with 12 samples.

Results

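The 10 genes described here encode the GINS complex (Gins1, Gins2, Gins3 and Gins4), CDC45 and the factors that fire replication origins (Ticrr, Mtbp, Topbp1, Recql4 and Dbf4). They were chosen by name and role, not by a threshold on a measured value, though with earlier results of these data known, from the 56691 mouse genes counted, and all 10 were among the 13230 genes with enough counts to be tested. The study counted 3′ mRNA ends in the R1 line of mouse embryonic stem cells, which is male, of 129 background and was grown on gelatin in serum with LIF, and asked how a switch to 2i, with and without inhibition of MRE11, changed their transcripts. 2i stands for inhibition of the kinases MEK and GSK3, which moves such cells toward naive pluripotency, and MRE11 is a nuclease that acts at DNA breaks and stalled forks. The 4 groups, each of 3 libraries, were cells given 2i alone for 6 days (2i), cells given 2i with 25 µM of an MRE11 inhibitor for 6 days (25 µM), cells given 2i with 50 µM of it for 6 days (50 µM), and the untreated starting cells at day 0, which the labels call primed. The compound is not named in the labels. There was no 6-day group without 2i, so an effect of 2i cannot be told apart from time in culture. Nothing in the labels ties the replicates to separate cultures. The p-values therefore reflect only how far libraries of a group differed, and part or all of that spread may be technical. In bulk RNA, fewer cells in S phase and less RNA per cell cannot be told apart.

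An origin is licensed when paired, inactive MCM rings are loaded on DNA in G1. It fires in S phase when CDC45 and the GINS complex join each MCM ring to form the CMG helicase, which unwinds the DNA ahead of the polymerases. The kinase CDC7 with its activator DBF4 phosphorylates MCM, while TICRR (Treslin) and its partner MTBP, together with TOPBP1 and RECQL4, bring CDC45 and GINS to the MCM rings. Embryonic stem cells have a short G1 phase and spend much of their cycle in S phase.

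Start-site windows from RefSeq (build GRCm38.p6, 250 bases before to 50 bases after a start) were matched for 5 of the 10 genes, Gins3, Cdc45, Ticrr, Topbp1 and Dbf4, and not for Gins1, Gins2, Gins4, Mtbp and Recql4. Each window was searched on both strands for an E2F site (TTTCGCGC, TTTGGCGC, TTTCCCGC or TTTGCCGC) and for a CCAAT box (CCAAT), which do not overlap each other in these windows. Letters of an E2F site were in 2 of the 5 windows (Gins3 and Topbp1), against 2.26% of the 32851 windows of 300 bases in the table, and a CCAAT box was in 3 of 5 (Gins3, Cdc45 and Ticrr), against 37.4% of all windows. The Dbf4 window held neither. Sequences are shown as context for the windows with a match, those of Gins3, Cdc45, Ticrr and Topbp1. A link between these letters and a change in level was not tested. Capitals mark the motif letters as they stand on the gene's strand. Only bases before both the RefSeq start and the GENCODE start are shown for Gins3 (chr8:95633309-95633452, plus strand), Ticrr (chr7:79659946-79660195, plus strand) and Topbp1 (chr9:103305077-103305214, plus strand), and the Gins3 E2F site (chr8:95633508-95633535, plus strand) and the Cdc45 CCAAT box (chr16:18811973-18811995, minus strand) are shown as short stretches. The letters of these short stretches' sites lie before the RefSeq start but past the GENCODE start, inside the annotated gene. The GENCODE start is at 95633453 for Gins3 and 18811987 for Cdc45. One further CCAAT match in Cdc45 and 1 in Ticrr cross the RefSeq start and are not shown. A match describes letters only and was not tested as a binding site.
Gins3 upstream: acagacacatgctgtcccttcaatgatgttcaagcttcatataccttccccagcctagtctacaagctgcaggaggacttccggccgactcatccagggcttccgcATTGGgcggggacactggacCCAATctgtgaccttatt
Gins3 E2F site: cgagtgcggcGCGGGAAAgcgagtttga
Cdc45 CCAAT box: cgaaccgtgtATTGGaaacttat
Ticrr upstream: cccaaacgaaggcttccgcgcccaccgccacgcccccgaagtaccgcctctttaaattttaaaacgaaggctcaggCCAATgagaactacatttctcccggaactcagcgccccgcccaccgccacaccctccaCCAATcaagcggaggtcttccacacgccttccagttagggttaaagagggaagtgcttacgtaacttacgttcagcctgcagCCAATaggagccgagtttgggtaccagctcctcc
Topbp1 upstream: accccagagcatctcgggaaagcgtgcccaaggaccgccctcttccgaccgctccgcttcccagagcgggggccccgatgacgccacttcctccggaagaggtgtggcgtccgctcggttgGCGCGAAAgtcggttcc

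Libraries held 5894561 to 7060126 counts, and the 10 genes had 55 to 1730 counts in a library. Levels are given as CPM, counts scaled to library size with TMM factors, for replicates 1, 2 and 3 in turn or as mean ± SD over n = 3 libraries. They are not adjusted for length and are compared between groups of 1 gene, never between genes. Changes are log2 fold changes ± SE, and a gene is called when its Benjamini-Hochberg adjusted p over all tested genes is below 0.05 in edgeR's quasi-likelihood test. The 4 libraries numbered 1 stood apart from the other 8: the feature ENSMUSG00000119584 took 2.32% to 2.71% of their counts, while a mitochondrial gene led the others with 1.26% to 1.59%. Gins3, Topbp1 and Dbf4 were highest in replicate 1 in 4 of 4 groups, by a mean of 0.31, 0.31 and 0.33 on the log2 scale, and Gins4 and Cdc45 in 0 of 4. Values without those 4 libraries are given beside the calls for the 10 genes that they change. All 10 embryonic stem cell markers had counts in every group, with a summed level of 4334 to 5470 CPM over the 12 libraries, although the defining marker Pou5f1 averaged only 6.53 to 8.41 CPM in a group. Summed fibroblast markers moved with the groups, at 11.5 to 16.4 CPM in 2i, 4.55 to 5.54 CPM at 25 µM, 0.895 to 2.11 CPM at 50 µM and 30.4 to 72.9 CPM in primed cells. Of those 7 genes, 5 had counts in 2i (Col3a1 and Lum at 0), 5 at 25 µM (Col3a1 and Dcn at 0), and 4 at 50 µM and in primed cells (Postn, Dcn and Lum at 0 in both). Summed trophoblast markers ran in the same order, at 21.2 to 25.2 CPM in primed cells and 11.5 to 12.7 CPM in 2i. They were at 7.95 to 10.7 CPM at 25 µM and 2.91 to 6.86 CPM at 50 µM. Of these 6 genes, Cdx2 and Gata3 were instead lower in primed cells than in 2i (means of 0.0519 and 4.42 CPM against 1.94 and 5.96 CPM). Summed neuroectoderm markers were higher in primed cells (103 to 116 CPM) than in 2i (56.0 to 78.1 CPM). Most of that sum was Tubb3 (means of 91.9 CPM in primed cells and 63.3 CPM in 2i). Sox1 alone of the 6 went the other way (0.730 and 1.43 CPM). Summed mesoderm markers were lower in primed cells (6.56 to 8.24 CPM) than in 2i (9.98 to 16.0 CPM). That held for T, Mixl1 and Kdr, while Eomes, Mesp1 and Tbx6 averaged slightly higher in primed cells. Summed endoderm markers overlapped between primed cells (5.88 to 14.5 CPM) and 2i (6.76 to 8.25 CPM). Their sums were 5.82 to 6.90 CPM at 25 µM and 4.03 to 4.69 CPM at 50 µM. The part of these markers in the results was not tested.

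After 6 days in 2i, Gins3, Cdc45, Ticrr and Recql4 were higher than in primed cells, by 29.1% to 51.5%, and no gene of the 10 was called lower. The other 3 GINS genes, Mtbp, Topbp1 and Dbf4 were not called. Of all tested genes, 20.0% were called higher and 20.4% lower, 40.4% in all, so that 4 of 10 is near the background. The median log2 change of the 10 genes was 0.22, beside −0.01 over all tested genes, and 9 of 10 values were above 0. The libraries of the groups did not overlap for 5 genes on the higher side (24.6% of all tested genes) and for 1, Dbf4, on the lower side (25.8%).

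The 4 GINS subunits form 1 stable complex, and in 2i only the Gins3 gene of the 4 was called, though differences between the genes were not tested. Gins3 (ENSMUSG00000031669, chromosome 8, 95633453 to 95645060 on GRCm38) stood at 28.1, 19.6 and 23.4 CPM in 2i and at 17.9, 14.1 and 14.8 CPM in primed cells. Every 2i library was above every primed library, and replicate 1 was the highest in both groups. The rise was 0.60 ± 0.16 on the log2 scale, 1.52-fold, with an edgeR adjusted p of 0.00473. Gins1 averaged 70.0 ± 3.8 CPM in 2i and 70.0 ± 3.7 CPM in primed cells, Gins2 averaged 120 ± 4.2 CPM in 2i and 114 ± 7.2 CPM in primed cells, and Gins4 averaged 111 ± 6.9 CPM in 2i and 107 ± 8.0 CPM in primed cells. The libraries of both groups overlapped for all 3, and the 95% intervals of their log2 changes were −0.18 to 0.19 for Gins1, −0.10 to 0.26 for Gins2 and −0.15 to 0.25 for Gins4. None of the 3 intervals reached 0.60.

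Cdc45 (ENSMUSG00000000028, chromosome 16, 18780447 to 18811987), which completes the helicase with GINS, stood at 44.7, 52.4 and 59.8 CPM in 2i, against 39.8, 41.4 and 40.4 CPM in primed cells. The groups did not overlap, and the 2i libraries were spread far more widely than the primed ones. The rise was 0.37 ± 0.12 on the log2 scale with an edgeR adjusted p of 0.0136, which became 0.108 without 2i replicate 3. Cdc45 shares a head-to-head start with Ufd1, a subunit of the VCP adaptor that helps unload CMG after replication, and the genes overlap by 209 bp at their 5′ ends, away from the counted 3′ ends. Ufd1 averaged 109 ± 5.3 CPM in 2i and 80.3 ± 5.9 CPM in primed cells and rose by 0.44 ± 0.09 (edgeR adjusted p = 0.000304).

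Ticrr (ENSMUSG00000046591, chromosome 7, 79660196 to 79698148), the Treslin gene whose product carries CDC45 to the MCM rings when phosphorylated by CDK, stood at 85.7, 83.4 and 89.2 CPM in 2i, against 65.7, 53.1 and 58.6 CPM in primed cells. The lowest 2i library lay well above the highest primed library. It rose by 0.54 ± 0.09 on the log2 scale, 1.45-fold, with an edgeR adjusted p of 6.95e-05, and the call held when any library of either group was left out (adjusted p 3.42e-05 to 0.00116). The Ticrr 3′ end overlaps that of Kif7, on the other strand, by 51 bp, and Kif7 went the other way at a low level (3.61 ± 0.66 CPM in 2i and 8.72 ± 0.30 CPM in primed cells, edgeR adjusted p = 0.000198). Mtbp, which encodes the partner of Treslin, averaged 27.4 ± 1.0 CPM in 2i and 22.7 ± 1.4 CPM in primed cells. Its groups did not overlap, and its change of 0.27 ± 0.19 was not called (95% interval −0.13 to 0.67, edgeR adjusted p = 0.286).

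Recql4 (ENSMUSG00000033762, chromosome 15, 76703553 to 76710548), a RecQ family protein needed for assembly of the helicase, had the lowest counts of the 10, with 55 to 127 in a library. It stood at 18.9, 14.6 and 13.9 CPM in 2i, against 12.6, 11.6 and 8.57 CPM in primed cells. The groups did not overlap, though the lowest 2i library was close to the highest primed one. The rise of 0.53 ± 0.17 had an edgeR adjusted p of 0.0154, which became 0.107 without primed replicate 3 and 0.0969 without 2i replicate 1. The last exon of Recql4 (125 bp) lies under Mfsd3 on the other strand, which makes its counts uncertain because the strand setting of the counting is not known. Mfsd3 averaged 5.32 ± 0.53 CPM in 2i and 5.31 ± 1.56 CPM in primed cells.

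Topbp1 (ENSMUSG00000032555, chromosome 9, 103305215 to 103350428), the scaffold that joins Treslin to GINS, averaged 105 ± 12 CPM in 2i and 92.8 ± 10.3 CPM in primed cells. The groups overlapped, and the change of 0.18 ± 0.13 was not called (95% interval −0.09 to 0.44, edgeR adjusted p = 0.295). Dbf4 (ENSMUSG00000002297, chromosome 5, 8396973 to 8422716), the activator of CDC7, stood at 215, 178 and 183 CPM in 2i, against 269, 216 and 216 CPM in primed cells. All 3 of its 2i libraries were below all 3 primed libraries, if only just for replicate 1 of 2i. Its change of −0.28 ± 0.13 missed the threshold (95% interval −0.55 to −0.01, edgeR adjusted p = 0.0892), but the adjusted p was 0.047 without 2i replicate 1 and 0.0416 without replicate 1 of all groups. Cdc7, the kinase that Dbf4 activates, averaged 40.0 ± 7.2 CPM in 2i and 34.8 ± 3.0 CPM in primed cells, a change of 0.20 ± 0.12 that was not called (edgeR adjusted p = 0.204, and 0.0206 without 2i replicate 1).

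**Figure D1:**
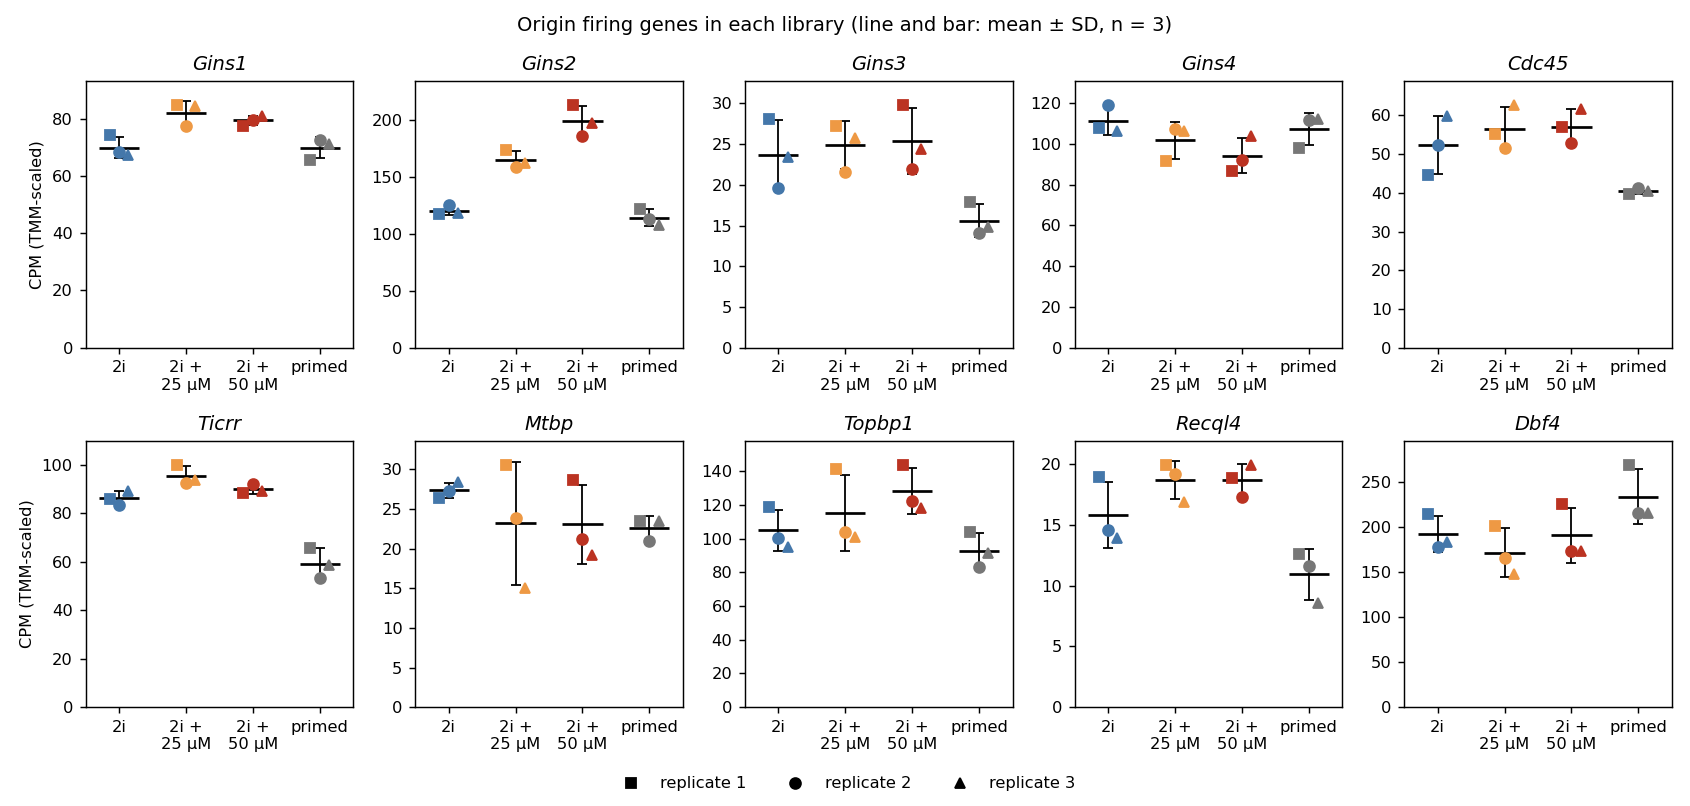
Level of each of the 10 genes in CPM (y axis, from 0) in every library of the 2i, 25 µM, 50 µM and primed groups (x axis). Symbols show replicates 1 to 3, and lines with bars show the mean ± SD (n = 3). Gins2 climbs with dose to 186 to 213 CPM at 50 µM, while Gins3, Cdc45, Ticrr and Recql4 are already higher in 2i than in primed cells.

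The edgeR fit that does not pair same-numbered libraries called 1 gene of the 10 with the MRE11 inhibitor against 2i. Gins2 rose at both doses, by 1.37-fold at 25 µM and 1.65-fold at 50 µM. At 25 µM, 1 of 10 genes was called, when 0.937% of all tested genes were (0.454% higher and 0.484% lower), and at 50 µM again 1 of 10, when 15.1% were (7.01% higher and 8.07% lower). With the replicate block, which 24.5% of tested genes passed at 50 µM, 3 of the 10 were called: Gins2, Gins4 and Topbp1. By non-overlap of the libraries, 3 genes were higher and none lower at 25 µM (10.2% and 9.25% of all tested genes), and 2 were higher and 1 lower at 50 µM (16.1% and 16.4%). The median log2 change of the 10 was 0.12 at 25 µM and 0.11 at 50 µM, beside 0.00 and 0.01 over all tested genes. Both comparisons use the same 2i libraries, so their values are set side by side and not counted as separate support.

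Gins2 (ENSMUSG00000031821, chromosome 8, 120578633 to 120589304), the PSF2 subunit of GINS, stood at 117, 125 and 119 CPM in 2i, at 173, 158 and 162 CPM at 25 µM, and at 213, 186 and 197 CPM at 50 µM. Primed cells had 122, 113 and 108 CPM. The 3 day 6 groups did not overlap and were ordered by dose, while 2i and primed cells overlapped and did not differ beyond their spread. At 50 µM Gins2 rose by 0.72 ± 0.09 on the log2 scale over 2i, with an edgeR adjusted p of 9.10e-06, a call that held under every alternative run and without any single library. At 25 µM the rise was 0.45 ± 0.09 (edgeR adjusted p = 0.0129). The call at 25 µM was lost without 2i replicate 3 (0.0858), without 25 µM replicate 1 (0.0664), without 25 µM replicate 3 (0.0507) and without replicate 1 of all groups (0.0539), with log2 changes of 0.38 to 0.45 in those fits. Among 112 genes of replication and the cell cycle, the 10 included, Gins2 had the sixth highest log2 change at 25 µM and the third highest at 50 µM.

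Most of the last exon of Gins2 (2758 of 3179 bp, chromosome 8, 120578633 to 120581811) lies under the 3′ end of Gse1 on the other strand. Since the strand setting of the counting was not stated, reads from both genes' ends cannot be told apart with certainty. Gse1 was counted at 37.5, 40.4 and 42.7 CPM in 2i, at 47.8, 50.1 and 40.8 CPM at 25 µM and at 37.5, 47.7 and 46.0 CPM at 50 µM, so its groups overlapped. Its log2 change was 0.13 ± 0.11 at 50 µM (edgeR adjusted p = 0.501) and 0.20 ± 0.11 at 25 µM (0.47), both against 2i. In 2i against primed cells Gse1 fell by 0.63 ± 0.11 (edgeR adjusted p = 9.84e-05), where Gins2 was not called. Gm20388, an annotated readthrough gene that spans the locus, had 0 counts in every library.

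Without the replicate block, no other GINS gene was called at either dose against 2i. With it, Gins4 was called lower at 50 µM (edgeR adjusted p = 0.0214). Gins1 (ENSMUSG00000027454, chromosome 2, 150905400 to 150931280), the PSF1 subunit, stood at 74.3, 68.5 and 67.3 CPM in 2i, at 84.9, 77.4 and 84.5 CPM at 25 µM and at 77.7, 79.8 and 81.1 CPM at 50 µM. The libraries of both doses were above all those of 2i, by small margins. Its log2 changes of 0.23 ± 0.09 at 25 µM and 0.18 ± 0.09 at 50 µM were not called (edgeR adjusted p = 0.25 and 0.175). Gins3, the PSF3 subunit, had 27.3, 21.6 and 25.7 CPM at 25 µM and 29.8, 21.9 and 24.4 CPM at 50 µM, overlapping 2i at both doses, with 95% intervals of −0.24 to 0.39 and −0.22 to 0.41 against 2i.

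Gins4 (ENSMUSG00000031546, chromosome 8, 23226616 to 23237659), the SLD5 subunit, stood at 108, 119 and 106 CPM in 2i, at 91.4, 107 and 107 CPM at 25 µM and at 86.7, 92.3 and 104 CPM at 50 µM. At 50 µM every library was below every 2i library, the highest only just. The log2 change of −0.24 ± 0.10 was not called (edgeR adjusted p = 0.107), but it was in the fit with the replicate block (adjusted p = 0.0214) and without 50 µM replicate 3 (adjusted p = 0.0446). At 25 µM the change was −0.13 ± 0.10 (edgeR adjusted p = 0.623).

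Because GINS holds its subunits in equal numbers, the ratio of raw counts within a library was also taken, which no scaling between libraries can change. The ratio of Gins2 to Gins4 was 1.09, 1.05 and 1.12 in 2i, 1.90, 1.48 and 1.52 at 25 µM, and 2.46, 2.01 and 1.90 at 50 µM. Primed cells had 1.24, 1.01 and 0.960. The ratios of the day 6 groups did not overlap, although the highest at 25 µM was only just below the lowest at 50 µM, with a difference of 0.96 on the log2 scale between 50 µM and 2i and of 0.58 between 25 µM and 2i. The exact two-sided permutation p was 0.1 for both, the smallest that 3 against 3 libraries allow. Gins2 was the numerator of every ratio, and its day 6 groups did not overlap in the same counts. The permutation p is therefore no separate support for its rise. Gins2 to Gins1 averaged 1.72 ± 0.13 in 2i, 2.00 ± 0.07 at 25 µM and 2.50 ± 0.21 at 50 µM, again without overlap. Gins2 to Gins3 averaged 5.21 ± 1.11 in 2i, 6.66 ± 0.57 at 25 µM and 7.90 ± 0.68 at 50 µM, against 7.37 ± 0.60 in primed cells. For that pair 25 µM overlapped both of its neighbours, and 2i, where Gins3 had risen, had the lowest ratios. A ratio shows that the subunits' counts changed unequally, not which of them changed.

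**Figure D2:**
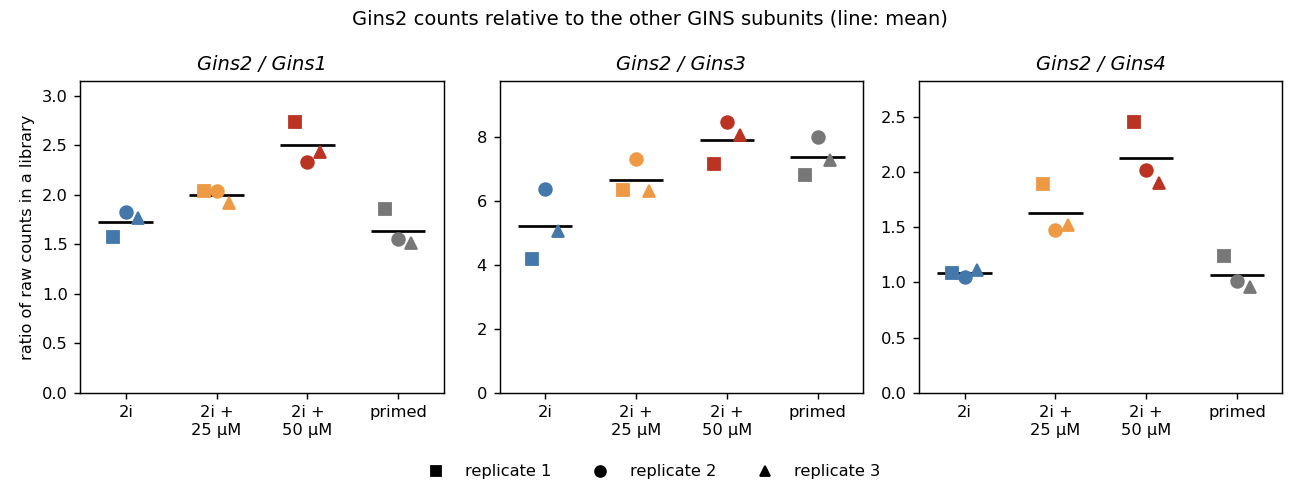
Ratio of Gins2 raw counts to those of Gins1, Gins3 and Gins4 in each library (y axis, from 0) for the 2i, 25 µM, 50 µM and primed groups (x axis). Symbols show replicates and lines show means. Gins2 to Gins4 rises with dose to 1.90 to 2.46 at 50 µM, and Gins2 to Gins3 is lowest in 2i.

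Without the replicate block, Cdc45 and the firing factors were not called at either dose against 2i. With it, only Topbp1 of these was called, at 50 µM (edgeR adjusted p = 0.00484). Cdc45 had 55.2, 51.6 and 62.6 CPM at 25 µM and 56.9, 52.8 and 61.7 CPM at 50 µM, and Ticrr had 99.9, 92.6 and 93.9 CPM at 25 µM and 88.5, 91.9 and 89.2 CPM at 50 µM. All 3 Ticrr libraries at 25 µM were above the 2i libraries, while those at 50 µM overlapped them. The 95% intervals of the log2 change at 50 µM were −0.11 to 0.36 for Cdc45 and −0.13 to 0.25 for Ticrr. Those of the rises between 2i and primed cells (0.37 and 0.54) were 0.13 to 0.61 and 0.35 to 0.73. The intervals overlapped for Cdc45 and did not for Ticrr. Both comparisons use the 2i libraries, and without 2i replicate 3 the 2 Cdc45 changes were 0.26 in 2i and 0.24 at 50 µM. A further Cdc45 rise of that size is therefore not excluded. Recql4 had 19.9, 19.2 and 16.9 CPM at 25 µM and 18.9, 17.3 and 19.9 CPM at 50 µM, with a log2 change of 0.24 ± 0.16 at each dose (edgeR adjusted p = 0.553 and 0.333). Mtbp was the most scattered, with 30.6, 23.9 and 15.1 CPM at 25 µM and 28.7, 21.2 and 19.3 CPM at 50 µM, against 26.4, 27.3 and 28.4 CPM in 2i. Its log2 changes of −0.24 ± 0.19 and −0.25 ± 0.19 were not called (edgeR adjusted p = 0.638 and 0.413).

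Topbp1 stood at 119, 101 and 95.3 CPM in 2i, at 141, 104 and 101 CPM at 25 µM and at 144, 122 and 118 CPM at 50 µM. Replicate 1 was the highest of its group at each dose and in 2i, and within each replicate number the level was highest at 50 µM and lowest in 2i. The log2 change at 50 µM, 0.29 ± 0.13, was not called (95% interval 0.02 to 0.55, edgeR adjusted p = 0.137), but it was with the replicate block (0.29 ± 0.08, adjusted p = 0.00484), which uses the pairing of same-numbered day 6 libraries. Dbf4 had 201, 166 and 148 CPM at 25 µM and 226, 173 and 173 CPM at 50 µM and was also highest in replicate 1. Its log2 changes were −0.16 ± 0.13 (edgeR adjusted p = 0.646) and −0.01 ± 0.13 (0.969). Mcm10, which joins the helicase as it is activated, was not called either, at 0.15 ± 0.09 and 0.16 ± 0.09, and neither was Cdc7, at 0.09 ± 0.12 and 0.12 ± 0.12, for 25 µM and 50 µM in turn.

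Between the doses, no gene of the 10 was called at 50 µM against 25 µM by edgeR, DESeq2 or limma voom (0, 0 and 0 genes), and 1, Gins2, had an unadjusted p below 0.05. In all, 1.16% of tested genes were called (0.181% higher and 0.975% lower). Gins2 averaged 199 ± 14 CPM at 50 µM and 165 ± 7.8 CPM at 25 µM, and the libraries did not overlap, as for 7.48% of tested genes on the higher side. The change was 0.27 ± 0.08 (95% interval 0.09 to 0.45, edgeR adjusted p = 0.145). With the replicate block it was called (adjusted p = 0.0191), among 4.10% of tested genes. The other 9 genes had log2 changes between −0.11 and 0.15. Only Ticrr among them had libraries that did not overlap (9.21% of tested genes on the lower side), averaging 89.8 ± 1.8 CPM at 50 µM and 95.4 ± 3.9 CPM at 25 µM, lower at the higher dose but not called (−0.09 ± 0.09, edgeR adjusted p = 0.779).

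**Figure D3:**
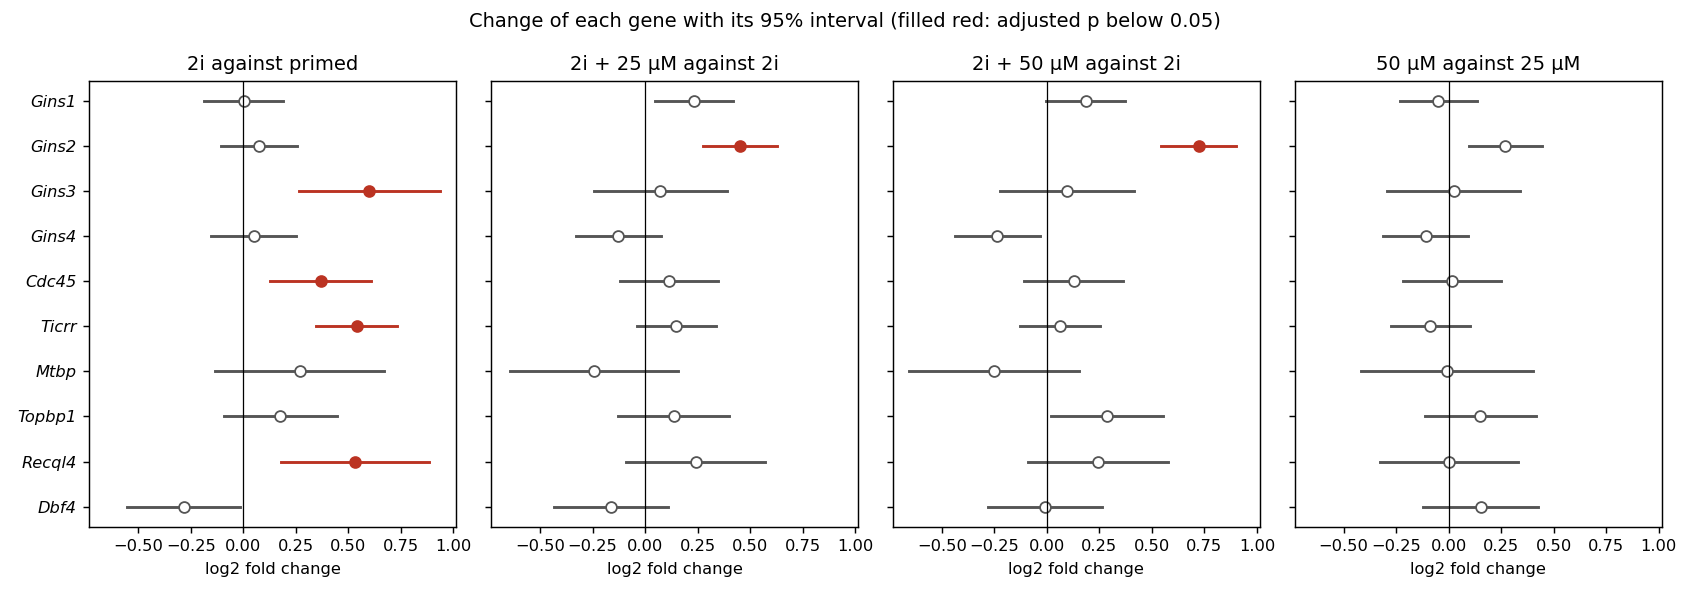
Log2 fold change of each gene (x axis) with its 95% interval, for 2i against primed, 25 µM against 2i, 50 µM against 2i and 50 µM against 25 µM. Filled red points have an edgeR adjusted p below 0.05. Gins3, Cdc45, Ticrr and Recql4 pass against primed, and Gins2 alone passes for each dose against 2i, in this fit without the replicate block.

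Set against primed cells, the inhibitor groups showed the 2i changes and the Gins2 rise together. At 25 µM, 6 of 10 genes were higher (Gins1, Gins2, Gins3, Cdc45, Ticrr and Recql4) and 1, Dbf4, was lower, when 42.3% of all tested genes were called (21.3% higher and 21.0% lower). At 50 µM, 6 were higher (Gins2, Gins3, Cdc45, Ticrr, Topbp1 and Recql4) and 0 lower by edgeR, when 44.3% were called (22.6% higher and 21.7% lower). DESeq2 and limma voom each called 6 genes at 50 µM, and 7 had an unadjusted edgeR p below 0.05, Dbf4 being the only one of them below its primed level. The median log2 change of the 10 was 0.40 at 25 µM and 0.48 at 50 µM, beside 0.02 and 0.03 over all tested genes. Both comparisons share the primed libraries with that of 2i, so none of the 3 supports another.

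The largest log2 changes against primed cells were 0.77 ± 0.17 at both doses for Recql4 (edgeR adjusted p = 0.000711 at 25 µM and 0.000708 at 50 µM) and 0.80 ± 0.09 at 50 µM for Gins2 (edgeR adjusted p = 1.40e-07). Ticrr was higher by 0.69 ± 0.09 at 25 µM and 0.60 ± 0.09 at 50 µM, and Gins3 by 0.67 ± 0.16 and 0.70 ± 0.16. Cdc45 was higher by 0.48 ± 0.11 at 25 µM and 0.50 ± 0.12 at 50 µM, and the calls of these 5 genes held without any library at both doses. Topbp1 was higher by 0.46 ± 0.13 at 50 µM (edgeR adjusted p = 0.00595). At 25 µM its change of 0.31 ± 0.13 missed the threshold (edgeR adjusted p = 0.0564), and it passed in fits without primed replicate 1 (0.029), 2i replicate 1 (0.0438), 25 µM replicate 2 (0.0369), 25 µM replicate 3 (0.0292) or 50 µM replicate 1 (0.0464). It also passed with library totals alone (0.0379) and with no low-count filter (0.0103). Gins1 was called at 25 µM only (0.23 ± 0.09, edgeR adjusted p = 0.0389), and the call was lost without primed replicates 1, 2 or 3 (0.151, 0.0585 and 0.077) and without 25 µM replicates 1 or 3 (0.106 and 0.121). Without replicate 1 of all groups the adjusted p was 0.239, and the call held in 3 of 10 other settings, being lost with DESeq2 (0.084), RLE factors (0.0627), upper-quartile factors (0.0572), library totals alone (0.0601), no low-count filter (0.0918) and the compared groups alone (0.0629).

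Dbf4 was the 1 gene below its primed level in every day 6 group. Its log2 change was −0.28 ± 0.13 in 2i, −0.45 ± 0.13 at 25 µM (edgeR adjusted p = 0.00919) and −0.29 ± 0.13 at 50 µM (edgeR adjusted p = 0.0727). The last value passed the threshold without 2i replicate 1 (0.0446), 25 µM replicate 1 (0.0454) or 50 µM replicate 1 (0.0076), and was 0.00623 without replicate 1 of all groups. With no low-count filter both the 50 µM and the 2i change passed (adjusted p = 0.0142 and 0.029), and the 50 µM change also passed with upper-quartile factors (0.0397), library totals alone (0.0208) or the compared groups alone (0.0446). The difference between the doses, 0.15 ± 0.13, was not (edgeR adjusted p = 0.723). Without the replicate block, Gins4 and Mtbp were not called at either dose, at −0.19 ± 0.10 for Gins4 at 50 µM (edgeR adjusted p = 0.127). For Gins4 the adjusted p was 0.0413 without 50 µM replicate 3 and 0.0421 with the replicate block.

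The order of the group levels differed by gene. Gins2 ran from 50 µM through 25 µM to 2i, with primed cells beside 2i. Gins3, Cdc45, Ticrr and Recql4 were lowest in primed cells, with the 3 day 6 groups close together. For Gins3, Cdc45 and Recql4 those 3 groups overlapped in every pairing. Topbp1 ran from 50 µM through 25 µM and 2i to primed cells, with only 50 µM and primed cells free of overlap. Dbf4 was highest in primed cells, whose libraries overlapped those of 50 µM. Gins4 was highest in 2i and lowest at 50 µM, with primed cells and 25 µM between them. Gins1 was higher at both doses, which overlapped each other, than in 2i or primed cells, which also overlapped. Mtbp was highest in 2i, and both doses overlapped every other group.

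Across the 12 libraries the 10 genes did not vary as 1 block. Of the 45 pairs, 27 had a positive Pearson correlation of log2 CPM, with a median of 0.36 and a range from −0.81 (Gins4 with Topbp1) to 0.88 (Gins3 with Ticrr). Gins3, Cdc45, Ticrr and Recql4 correlated with each other at 0.66 to 0.88. Within the 9 day 6 libraries those values were −0.17 to 0.54, and the median of all pairs was 0.26. Gins2 correlated with Gins1 at 0.75 over 12 libraries and 0.73 over the 9 of day 6, and ran against Gins4, at −0.71 and −0.74. These points share the 4 groups and the difference between replicate 1 and the others, so the values are a description without a test.

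**Figure D4:**
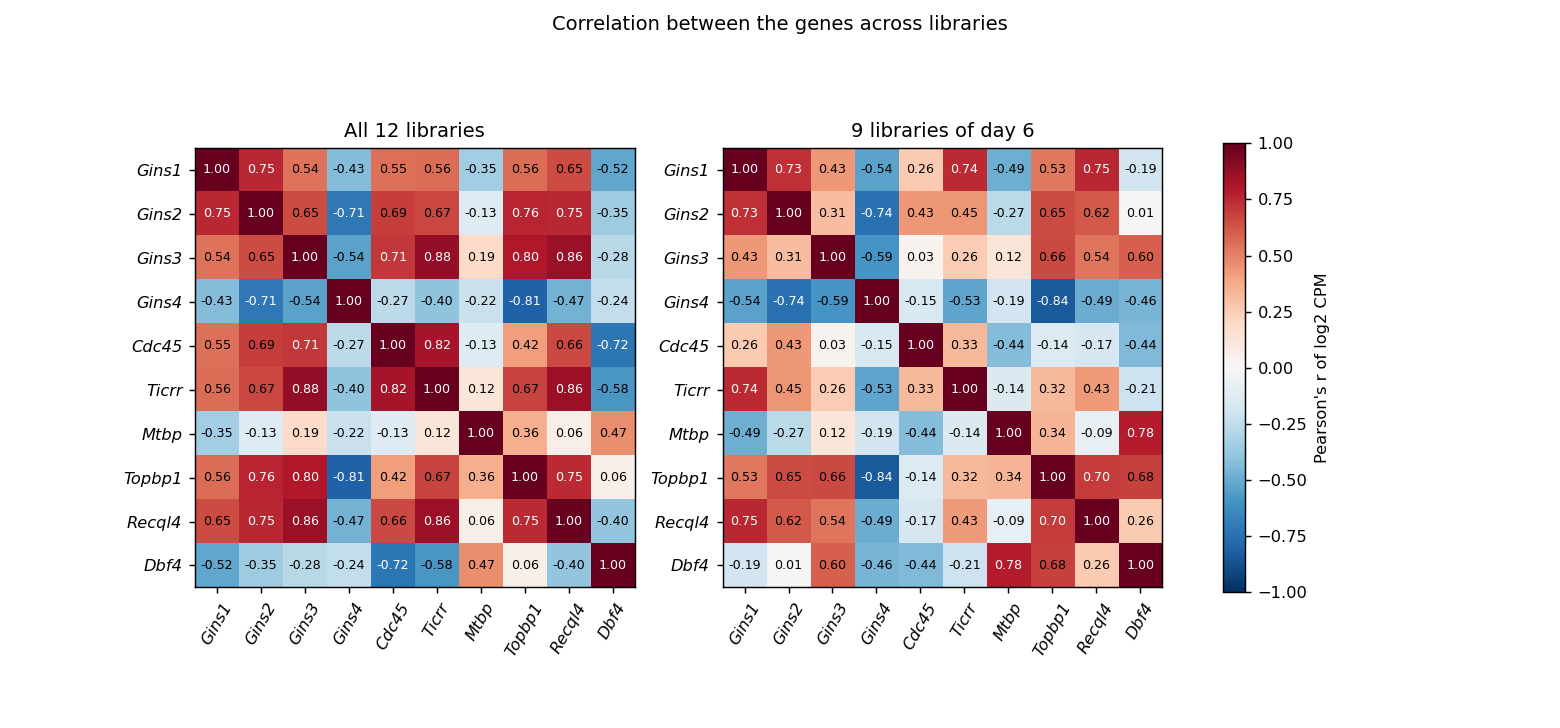
Pearson's r of log2 CPM between each pair of the 10 genes over all 12 libraries (left) and over the 9 libraries of day 6 (right), on a colour scale from −1 (blue) to 1 (red). Gins4 is negative with all 9 other genes in both panels, and the red block of Gins3, Cdc45, Ticrr and Recql4 on the left is paler on the right.

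The genes most like each of the 10 across the 12 libraries, by the same measure, were sought among genes whose log2 CPM averaged 3 or more. For Gins2 they were B3gat3 (r = 0.96) and Timeless (0.95), for Gins3 Zrsr2 (0.98) and Kmt2e (0.97), for Cdc45 Trappc1 (0.97) and Tmem14c (0.95), and for Ticrr Rpp25 (0.98) and Eya1 (0.98). For Topbp1 they were Spindoc (0.98) and Zcchc7 (0.96), for Recql4 H2-M5 (0.95) and Tnrc18 (0.95), for Dbf4 Dbr1 (0.95) and Mphosph10 (0.95), and for Gins4 Ttc1 (0.92) and Jpt1 (0.90). Gins1 and Mtbp had no gene above 0.90, with Acd (0.89) and Zgrf1 (0.87) nearest to Gins1 and Morc3 (0.87) and Atxn2 (0.82) nearest to Mtbp. Over the 9 day 6 libraries some values were lower. Ticrr had 0.72 with Rpp25 and 0.80 with Eya1, and Recql4 had 0.79 with H2-M5 and 0.76 with Tnrc18. Others were no lower, such as Topbp1 with Spindoc (0.99) and Gins4 with Ttc1 (0.93). These genes are the highest of all those searched, so their values are a description without a test.

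The 102 other replication and cell cycle genes, in 6 lists, set these changes in their pathway, and all 102 passed the low-count filter. In 2i against primed cells, where 20.0% of all tested genes were called higher and 20.4% lower, no list is read as standing out from that background. Of 18 firing kinases and partners 4 rose and 2 fell. Donson, which helps deliver GINS to origins, rose by 0.83 ± 0.14 (26.2 ± 2.4 CPM in 2i and 14.8 ± 1.3 CPM in primed cells, edgeR adjusted p = 5.38e-05), Cdk2 rose by 0.40 ± 0.10, and Ccne1, its cyclin E partner, fell by 0.83 ± 0.09 (edgeR adjusted p = 7.67e-08). Of 16 licensing genes 3 rose and 1 fell, with Mcm3 and Mcm4 higher by 0.31 ± 0.09 and 0.27 ± 0.08 and the MCM loader Cdt1 lower by 0.33 ± 0.08. The Mcm3 call was lost without primed replicate 3 (0.0519) and the Mcm4 call without primed replicate 2 (0.0635). The list medians were 0.10 and 0.07, beside −0.01 over all tested genes.

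Among 11 genes that unload CMG after replication, 4 rose in 2i and 1 fell. Lrr1, which directs the CUL2 ubiquitin ligase to the MCM7 subunit of CMG, rose by 1.19 ± 0.14 (28.0 ± 1.4 CPM in 2i and 12.2 ± 1.9 CPM in primed cells, edgeR adjusted p = 4.41e-07). Cul2 rose by 0.28 ± 0.09, a call lost without primed replicate 1 (0.061) or 2i replicate 2 (0.0719), and 2 genes of the list were called higher when either was left out. Of 24 fork elongation genes 1 rose and 4 fell, with the clamp loader subunits Rfc4 and Rfc5 lower by 0.49 ± 0.12 and 0.39 ± 0.10 and the polymerase delta subunit Pold2 lower by 0.46 ± 0.11. Of 13 E2F and RB family genes 3 rose and 4 fell, and without primed replicate 1 the counts were 0 and 4. The repressors E2f8 and E2f7 fell by 1.30 ± 0.15 and 0.61 ± 0.12, and E2f4 fell by 0.48 ± 0.10. Of 20 G2/M and mitosis genes 1 rose and 4 fell, and the number called ran from 1, without primed replicate 2 or 2i replicate 3, to 6 when each library of the 2 groups was left out. Cdca3 rose by 0.26 ± 0.08, while the mitotic kinases Plk1 and Bub1 fell by 0.24 ± 0.09 and 0.27 ± 0.10.

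Cell cycle genes other than Gins2 also rose with the inhibitor. At 50 µM against 2i, 5 of 16 licensing genes rose and 1 fell, when 7.01% of all tested genes were called higher and 8.07% lower. Cdt1 rose by 0.71 ± 0.08 (362 ± 19 CPM at 50 µM and 221 ± 13 CPM in 2i, edgeR adjusted p = 9.10e-06) and Mcm5 by 0.49 ± 0.09 (499 ± 54 CPM at 50 µM and 355 ± 7.6 CPM in 2i, edgeR adjusted p = 0.000834), while the origin recognition subunit Orc4 fell by 0.43 ± 0.10. Without 2i replicate 1, 2 licensing genes were called higher and 1 lower, and with the replicate block 9 and 1, when the block called 12.1% of all tested genes higher and 12.4% lower. Timeless, a fork protection factor, rose by 0.60 ± 0.10 (edgeR adjusted p = 0.000339), and Ccne1 fell by 0.52 ± 0.09 (edgeR adjusted p = 0.000396). They were the only ones called of the 18 firing kinases and partners without the replicate block, and with it 2 rose and 1 fell.

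Of the 24 elongation genes, 5 rose at 50 µM and 0 fell by edgeR, when 10 and 1 had an unadjusted p below 0.05, and DESeq2 and limma voom each called 5. Pold1 rose by 0.55 ± 0.11, Rfc3 by 0.47 ± 0.10 and Rrm2, a subunit of the enzyme that makes deoxynucleotides, by 0.35 ± 0.09, a call lost without 2i replicate 3 (0.0697) or 50 µM replicate 1 (0.062). With the replicate block 11 rose and 1 fell, and 2 rose without 2i replicate 3 or 50 µM replicate 1. Of the E2F and RB family 4 rose and 1 fell, and 3 rose and 0 fell without 2i replicate 2. E2f8 rose by 1.12 ± 0.15 (38.9 ± 7.4 CPM at 50 µM and 17.9 ± 0.9 CPM in 2i, edgeR adjusted p = 3.53e-05), E2f2 by 1.00 ± 0.18 and E2f1 by 0.53 ± 0.12, a call lost without 2i replicate 1 (0.0551). The list medians were 0.20 for licensing, 0.22 for elongation and 0.20 for the E2F and RB family, against 0.11 for the 10 genes described here and 0.01 over all tested genes.

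The remaining lists moved little at 50 µM. Of the CMG unloading genes Rbx1 rose by 0.46 ± 0.09 and Eloc fell by 0.42 ± 0.09, with a list median of −0.06. Of the G2/M and mitosis genes Hmmr fell by 0.40 ± 0.11, with 0 called without 2i replicate 1, 2i replicate 2, 50 µM replicate 2 or 50 µM replicate 3. With the replicate block 3 rose and 1 fell.

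At 25 µM against 2i the calls were fewer. The edgeR adjusted p was 0.00639 for Cdt1, higher by 0.50 ± 0.08, and this became 0.0584 when 2i replicate 3 was left out. Mcm5 rose by 0.39 ± 0.09 (edgeR adjusted p = 0.0441), a call that ended without any 1 library of the 25 µM or 2i groups and also without primed replicates 2 or 3 (0.0695 and 0.0675) or 50 µM replicate 1 (0.0519). Timeless rose by 0.44 ± 0.10 (edgeR adjusted p = 0.0401), a call lost without 2i replicates 2 or 3 or any 25 µM library, and lost too without primed replicates 2 or 3 (0.0549 and 0.0532). E2f1 rose by 0.57 ± 0.12 and E2f8 by 0.68 ± 0.15 (edgeR adjusted p = 0.0312 and 0.0394), each losing its call without 2i replicate 1 or 3, among others. With the replicate block, 7 licensing genes rose and 1 fell, against 2 and 0 without it, when the block called 2.48% of all tested genes higher and 2.26% lower. No elongation, CMG unloading or G2/M gene was called by edgeR at 25 µM, with 6, 2 and 2 of them at an unadjusted p below 0.05. DESeq2 called 0, 1 and 0, limma voom 0, 0 and 0, and the replicate block 1, 2 and 2. Between the doses, Ccne1 was lower at 50 µM by 0.39 ± 0.09 (98.0 ± 5.6 CPM at 50 µM and 128 ± 5.5 CPM at 25 µM, edgeR adjusted p = 0.0302), a call that leaving out any 1 of 5 libraries ended. Without the replicate block, no other gene of the 6 lists was called. With it, 1 E2F and RB family gene was also called, higher at 50 µM, when 1.27% of all tested genes were.

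**Figure D5:**
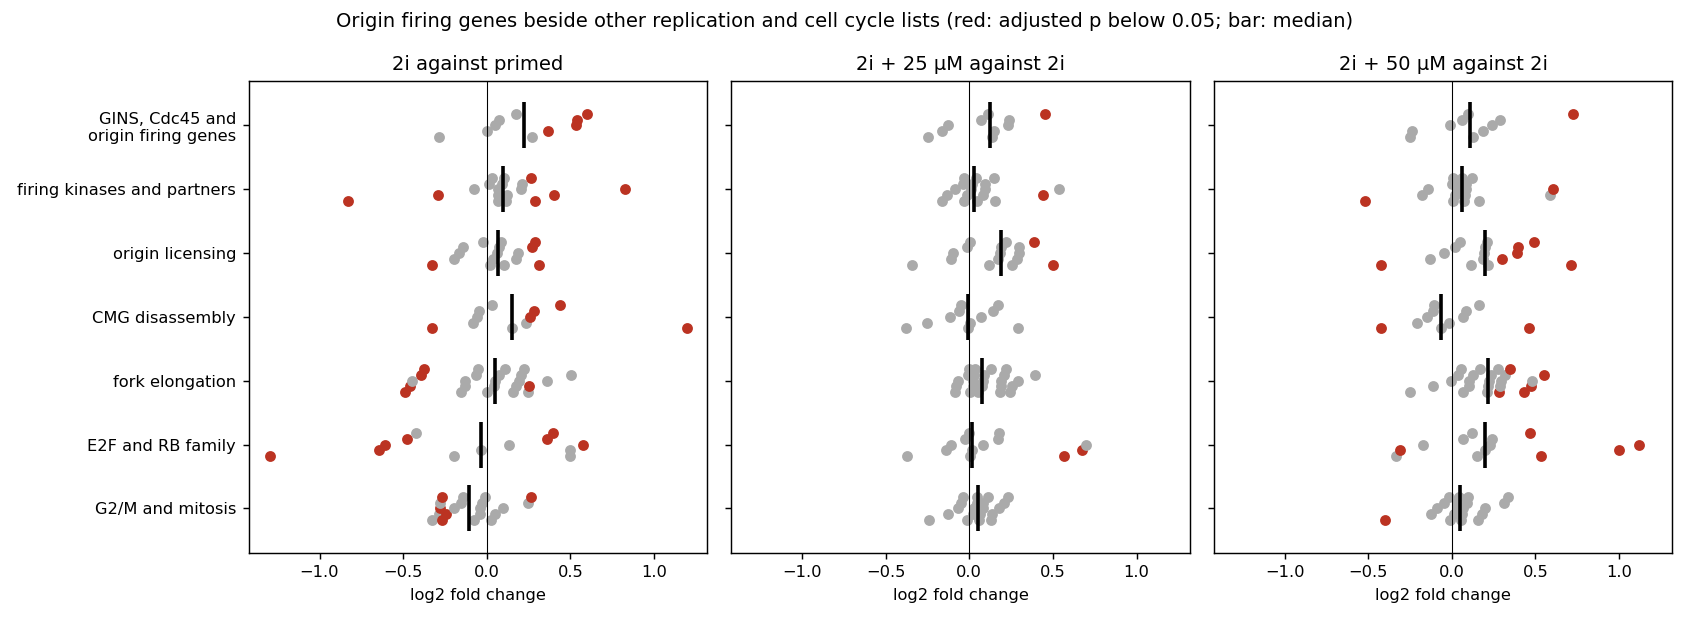
Log2 fold change (x axis) of the 10 genes and of 6 other replication and cell cycle lists (y axis) for 2i against primed, 25 µM against 2i and 50 µM against 2i. Each point is a gene, red where the edgeR adjusted p is below 0.05, and bars mark list medians. At 50 µM the medians of licensing (0.20) and elongation (0.22) lie to the right of that of the 10 genes (0.11).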

How the data were processed

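The authors deposited raw counts per gene, 1 table per library, made from QuantSeq 3′ mRNA libraries (oligo-dT primed, per the labels' protocols). FastQC, STAR, DESeq2 1.32.0 and the build GRCm38 (mm10) are named in the submitters' processing notes, while the STAR version, read counter, annotation release, strand setting and use of molecular identifiers were not given in the sources used here. Of 56805 features, the 114 spike-ins, with 2 counts in all, were dropped. The series-wide table repeats these counts and went unused; no column (0) lacked a sample. Symbols were found for 52073 of 56691 IDs. Library totals were 5894561 to 7060126, and chi-square per degree of freedom between replicates was 2.48 to 11.7, more than sampling noise gives.

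Counts were fitted in R 4.3.3 with edgeR 4.0.16 (TMM, filterByExpr, robust quasi-likelihood F test, all 12 libraries), with Benjamini-Hochberg adjustment over 13230 genes. The SE is the log2 fold change divided by the square root of F. Log2 CPM used a prior count of 2. Alternatives were DESeq2 1.42.0, limma 3.58.1 (voom), RLE, upper-quartile and no scaling factors, no filter or 1 CPM in 3 libraries, the replicate number as a block, the compared groups alone, and leaving out each library. Leaving out replicate 1 of all groups was chosen after seeing the data. The fits were tested on simulated data.

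Same-numbered libraries of the 3 day 6 groups deviated together (r = 0.11 to 0.31 in every pair of libraries), so the data pair them. Those of day 6 and primed cells did not pass 0.1 in every pair and were not treated as paired.

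All 10 genes were named. Of each other list, up to 3 called genes with the smallest p per comparison were named, plus Cdc7, Mcm10, genes overlapping the 10, and the 2 genes most correlated with each. The 10 genes and the lists were chosen with earlier results of these data known. Positions are from GENCODE M21 (GRCm38) and start windows from RefSeq. No other near-identical copy of the last 500 bases of a transcript was found with blastn 2.17.0, apart from the overlaps described.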

Additional observations from a re-analysis of the deposited data

How the results depend on the processing

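Among single-gene results for the 10 genes, 1216 kept direction and side of the threshold, 27 passed and 19 lost it, 58 uncalled values moved, and none reversed. Genes of the 10 called in 25 µM against 2i numbered 0 to 1 when 1 library was left out and 0 when replicate 1 of all groups was left out, an alternative chosen after seeing the data, against 1 as reported. In 50 µM against 2i they numbered 1 to 2 with 1 library left out and 3 with the replicate block, against 1. In 50 µM against 25 µM they numbered 1 with the replicate block and 0 with any 1 library left out, against 0. Against primed cells, leaving out 1 library gave 3 to 4 for 2i (4), 6 to 8 for 25 µM (7) and 6 to 7 for 50 µM (6). With the replicate block 5, 8 and 8 were called there (47.6%, 49.5% and 51.3% of all tested genes). Same-numbered day 6 and primed libraries were not treated as paired, because their r of 0.01 to 0.24 did not pass 0.1 in every pair. That r was still positive in every pair. Over all 4 groups, a library correlated best with its own number in 32 of 36 cases. The calls added by the block were Dbf4 in 2i and at 50 µM (adjusted p = 0.000732 and 0.000383), Topbp1 at 25 µM (0.00125) and Gins4 at 50 µM (0.0421). The cause of these shifts was not tested.

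Over all genes, calls in 25 µM against 2i numbered 124, with 268 without a filter, 627 with the block and 29 to 101 without single libraries of either group. In 50 µM against 2i they numbered 1994, with 3240 with the block and 1217 to 1668 without single libraries of either group (the lowest without 2i replicate 2). In 50 µM against 25 µM they numbered 153, with 329 without a filter, 542 with the block, 38 to 203 without single libraries of either group and 238 without replicate 1 of all groups. With library totals alone the higher share of calls was 31.9% for 25 µM and 30.2% for 50 µM, both against 2i, beside 48.4% and 46.5% with TMM. No scaling moved the median of all genes by over 0.1. Genes with few counts, such as Recql4, Gins3 and Mtbp, have the widest intervals.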
